A study of Rattus norvegicus with 8 samples.

Results

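The genes that make, sense and break down prostaglandin E2 were followed in rat osteoblast-like cells 6 h after exposure to an Er:YAG laser. The rule that picks these 10 genes uses their names and no measured value, but the genes were chosen with earlier results of these data known. They are the cyclooxygenases Ptgs1 and Ptgs2, the prostaglandin E synthases Ptges, Ptges2 and Ptges3, the receptors Ptger1, Ptger2, Ptger3 and Ptger4, and the dehydrogenase Hpgd. They are 10 of 34912 gene names on the array. They had 17 of its 45598 rat probes, and 15 of these 17 were bright enough to be tested, among 26391 tested probes in all. The cells came from the calvaria (skull cap) of 3 to 5-day-old Wistar rats. Bone pieces were digested with enzymes, and the cells released in the later rounds were cultured, so the cultures were enriched in osteoblast-like cells and not sorted. Medium was taken off before irradiation. Irradiated cells received 3.3 J/cm2 over 60 s, control cells received 0 J/cm2, and both were collected at 6 h, with 4 cultures numbered 1 to 4 in each group. The labels list a growth medium with serum and an osteoinduction medium that adds ascorbic acid, β-glycerophosphate and 10 nM dexamethasone. The authors put their qPCR cultures, collected at 6 h among other times, in the osteoinduction medium right after irradiation. For the arrayed cells the medium at collection is not stated separately.

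Prostaglandin E2 is a lipid mediator made in steps. Phospholipases free arachidonic acid from membranes, the cyclooxygenases turn it into prostaglandin H2, and the prostaglandin E synthases convert that into prostaglandin E2. The product leaves the cell, acts on G protein-coupled receptors called EP1 to EP4 (encoded by Ptger1 to Ptger4), and is inactivated by the enzyme that Hpgd encodes. In osteoblasts, mechanical and inflammatory stimuli are known to raise Ptgs2, glucocorticoids such as dexamethasone are known to lower it, and the product acts on bone formation and resorption, mainly through EP2 and EP4.

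Each probe is a stretch of 60 bases, and several genes were read at more than 1 place. Positions are those given with the probes for the rat build rn4, and exon or UTR annotation of that build was not used here. The 3 probes below show some of the places where synthase genes were read: an upstream site in Ptgs1, the end of the Ptgs2 reading frame, and the site in Ptges2. The Ptgs1 and Ptgs2 probes shown are not those with the highest mean signal of their genes. The fold change of Ptges2 after irradiation lay farthest from 0 among the members under the main processing. It did not with normexp background correction, with the deposited values or without replicate 3. Capitals mark the stop codon TAA that closes the otherwise open frame starting at the first base of the Ptgs2 probe.
Ptgs1 A_64_P375942, chr3:15350683-15350742, plus strand: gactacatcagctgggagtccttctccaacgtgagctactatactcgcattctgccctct
Ptgs2 A_64_P129316, chr13:64432919-64432978, plus strand: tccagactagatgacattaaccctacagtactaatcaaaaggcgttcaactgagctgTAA
Ptges2 A_43_P23200, chr3:11526212-11526271, plus strand: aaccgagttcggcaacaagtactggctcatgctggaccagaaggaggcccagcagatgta
The gap to the other Ptgs1 probe, A_44_P137448, was 14373 bases. The other Ptgs2 probes, A_44_P1153274 and A_43_P11872, began 930 and 2224 bases past the end of the probe that holds the stop codon. The accessions given for the Ptges3 probe belong to both Ptges3 and its relative Ptges3l1, so these 2 genes cannot be told apart. The 2 Ptger1 probes overlap in position and are written on opposite strands, and whether both read the Ptger1 transcript was not tested. Levels of different probes are not compared, because brightness also depends on the probe, and for each gene the probe with the highest mean signal is described first.

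Signals are given as log2 of the processed signal after quantile normalization of the 8 arrays. The median processed signal before normalization was between 56.2 and 84.8, between 26543 and 30490 probes were well above background, and 0 spots were saturated. Depth in the sense of counts does not apply to arrays, and precision is limited by the 4 arrays per group. All 9 osteoblast markers examined, such as Runx2 and Sp7, were above background on all 8 arrays, and so were 6 of the 9 macrophage and leukocyte markers with a probe, such as Cd14 and Cd68, while the pan-leukocyte marker Ptprc was above background on 1 array. All arrays were on 1 slide. Non-irradiated arrays lay in slide columns 1 and 3 and irradiated arrays in columns 2 and 4, so slide column and irradiation cannot be told apart. Arrays of the same number lay side by side, numbers 1 and 2 in slide row 1 and numbers 3 and 4 in slide row 2.

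The comparison of irradiated with non-irradiated cells asks whether the laser changed prostaglandin E2 genes by 6 h. None of the 15 tested member probes passed an adjusted p of 0.1 in limma, fitted with replicate number as blocking factor, and 0 of all 26391 probes did (0%). At an unadjusted p of 0.05, 0 of the 15 passed, against 676 of all tested probes (2.56%), of which 387 were higher (1.47%) and 289 lower (1.1%) in irradiated cells. In no member did the 2 groups stop overlapping, against 0.556% of all probes. By the brightest probe of each gene, 2 members had a log2 fold change above 0 and 8 below 0, against 50.5% of all tested probes above 0. These log2 fold changes ran from -0.34 for Ptges2 to 0.19 for Ptgs2, and their median was -0.07, against 0.0015 over all tested probes. The median half-width of the 95% interval over the 10 genes was 0.39 on the log2 scale, so changes smaller than this were mostly not detectable with 4 pairs, even before adjustment.

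**Figure D1:**
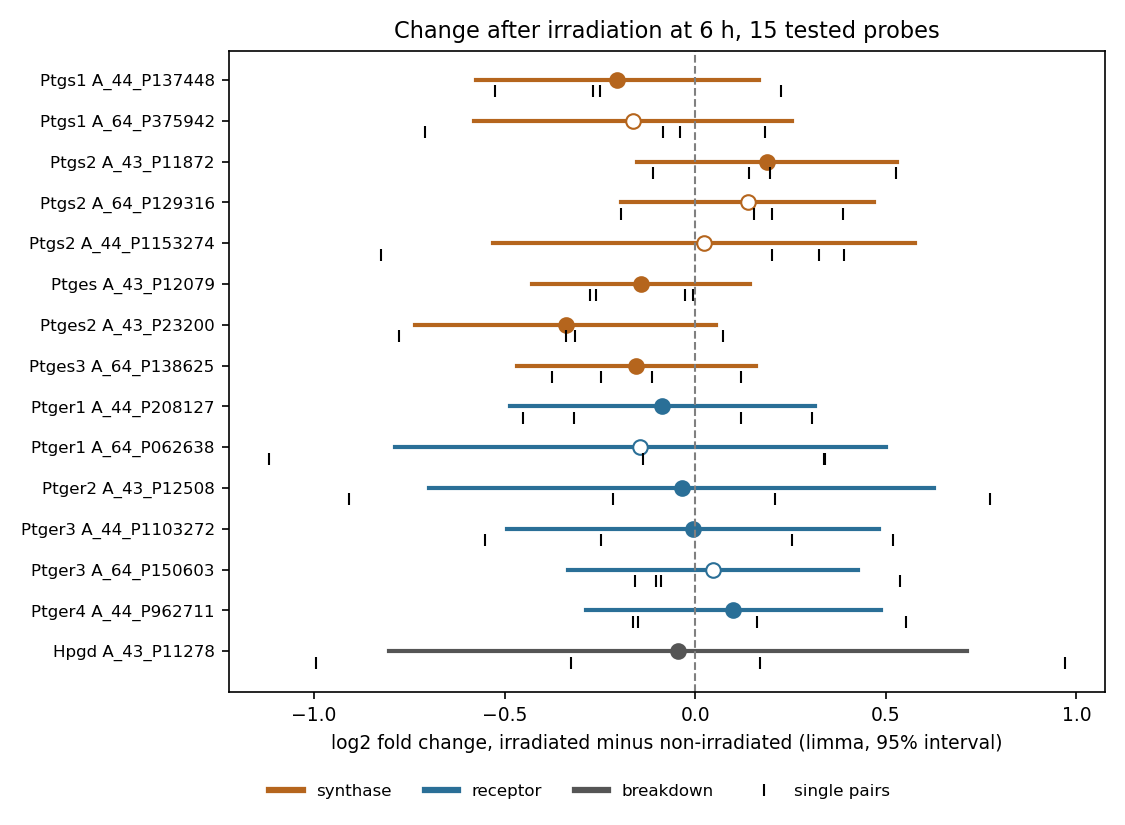
Log2 fold change (irradiated minus non-irradiated, x axis) of the 15 tested member probes (y axis); circles are limma estimates (filled for the brightest probe of a gene), bars 95% intervals, and ticks below each bar the 4 single pairs. Every interval crosses 0, and Ptges is the only probe whose 4 ticks all lie below 0.

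Ptgs1 encodes cyclooxygenase-1, the form that many tissues make constantly. At probe A_44_P137448, the log2 signal in non-irradiated replicates 1 to 4 was 12.80, 11.96, 11.43 and 12.49, and in irradiated replicates 1 to 4 it was 13.02, 11.44, 11.18 and 12.22. The arrays of replicate 1 were the highest in both groups, those of replicate 3 the lowest, and the groups overlapped over most of their range. The fold change was 0.868 (log2 -0.20 ± 0.15 SE, n = 4 pairs) with a 95% interval of 0.671 to 1.12 (limma, adjusted p = 1.00), and 1 of 4 pairs was higher after irradiation. The upstream probe A_64_P375942 gave a log2 fold change of -0.16 ± 0.17 SE, also higher in 1 of 4 pairs.

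Ptgs2 encodes cyclooxygenase-2, the inducible form. Probe A_43_P11872 had a log2 signal of 12.07, 11.44, 11.40 and 11.76 in non-irradiated replicates 1 to 4, and of 11.96, 11.97, 11.54 and 11.96 in irradiated replicates 1 to 4. Irradiated replicates 1, 2 and 4 lay within 0.02 of each other, replicate 3 was the lowest array in both groups, and the highest array of all was non-irradiated replicate 1. The fold change was 1.14 (log2 0.19 ± 0.14 SE, n = 4 pairs) with a 95% interval of 0.899 to 1.44 (limma, adjusted p = 1.00). It was higher in 3 of 4 pairs, and the pair of replicate 2, with a difference of 0.53, was the farthest from 0. The probe at the stop codon, A_64_P129316, gave 0.14 ± 0.14 SE and the probe A_44_P1153274 gave 0.02 ± 0.23 SE on the log2 scale. Both were higher in 3 of 4 pairs, but the pair that was lower differed, being replicate 1 at A_43_P11872, replicate 4 at A_64_P129316 and replicate 2 at A_44_P1153274. Replicate 2, the pair farthest above 0 at the first probe, was thus the only pair below 0 at the last, where its difference was -0.82. Left out, this pair moved A_44_P1153274 to 0.31 ± 0.11 SE (unadjusted p = 0.0381, adjusted p = 0.866 in limma), and the brightest probe to 0.08. The differences of A_44_P1153274 in replicates 1, 3 and 4 were 0.20, 0.33 and 0.39, so its estimate hung on replicate 2. Leaving out replicate 1, 3 or 4 instead took 0 member probes below an unadjusted p of 0.05 in limma.

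**Figure D2:**
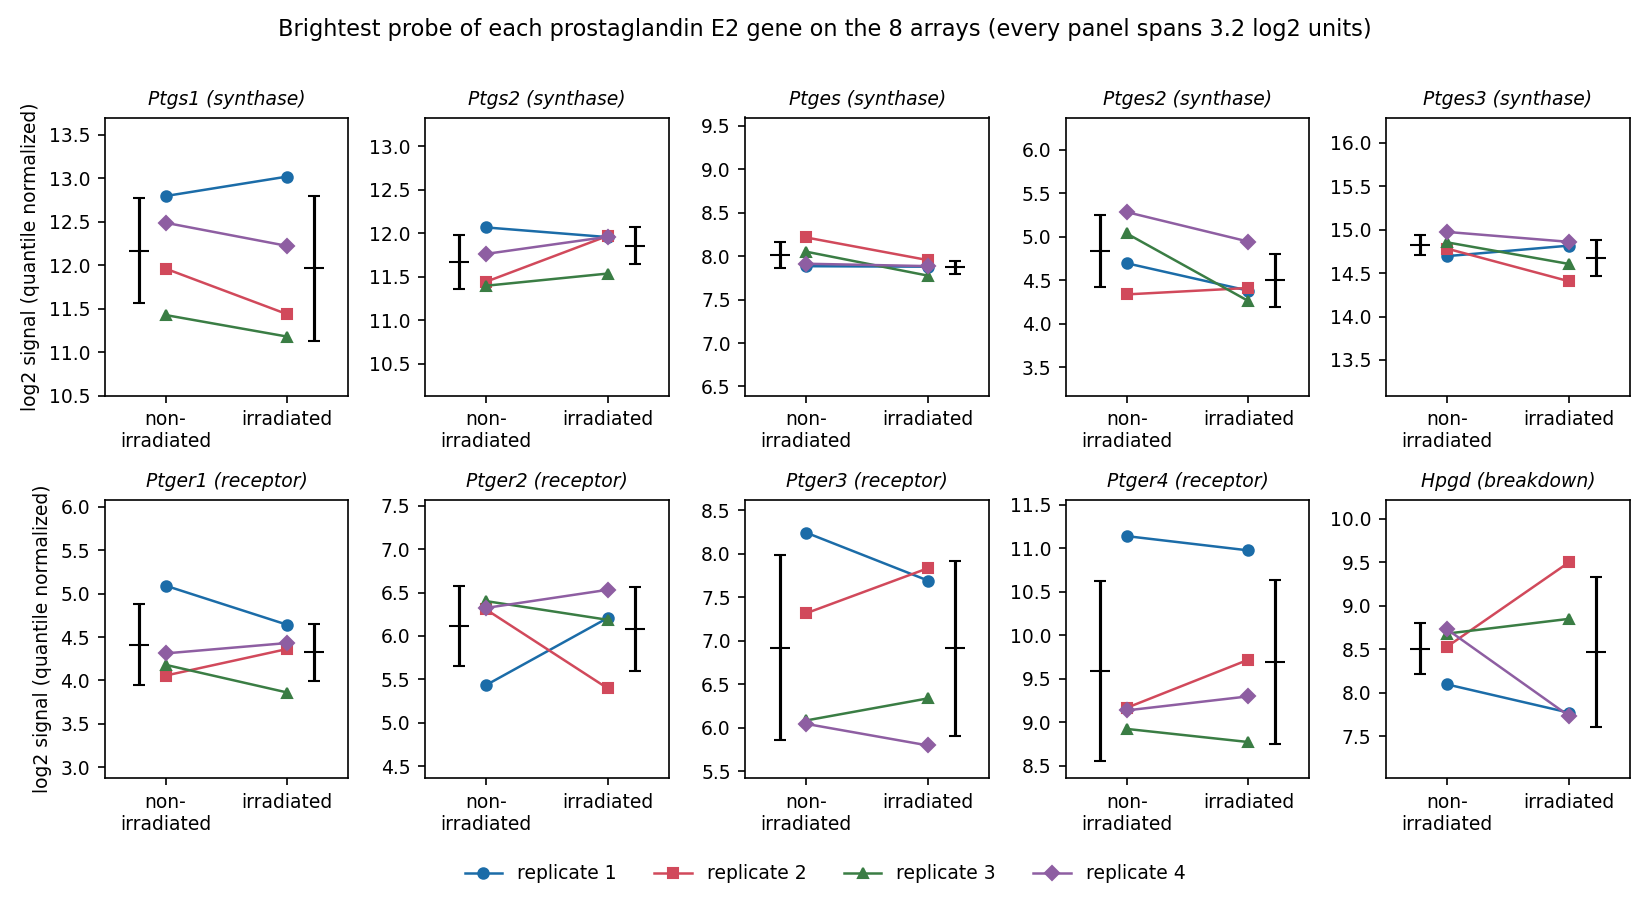
Log2 signal (y axis, quantile normalized, 3.2 log2 units in every panel) of the brightest probe of each of the 10 genes in non-irradiated and irradiated cells (x axis); lines join the 2 arrays of a replicate number, and black bars give the group mean ± SD (n = 4). In Ptger4 the line of replicate 1 stands above the others, in Ptger3 those of replicates 1 and 2 stand above those of 3 and 4, and those of Ptges lie close together.

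Ptges encodes microsomal prostaglandin E synthase-1, which is inducible and usually works with cyclooxygenase-2. Its log2 signal was 7.88, 8.21, 8.05 and 7.91 in non-irradiated replicates 1 to 4 and 7.88, 7.95, 7.77 and 7.88 in irradiated replicates 1 to 4. Irradiated cells were lower in 4 of 4 pairs, but the differences of replicates 1 and 4 were only -0.0057 and -0.03 and the groups overlapped. The fold change was 0.906 (log2 -0.14 ± 0.12 SE, n = 4 pairs) with a 95% interval of -0.43 to 0.14 on the log2 scale (limma, adjusted p = 1.00). It was the only 1 of 15 member probes to move one way in 4 of 4 pairs, against 7.5% of all probes with a value on every array (3.84% higher and 3.66% lower).

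Ptges2 encodes microsomal prostaglandin E synthase-2, which most tissues make constantly. Its probe, whose sequence is printed above, was dim, with a log2 signal of 4.70, 4.34, 5.04 and 5.28 in non-irradiated replicates 1 to 4 and of 4.38, 4.41, 4.26 and 4.94 in irradiated replicates 1 to 4. Replicate 2 was slightly higher after irradiation, the other 3 pairs were lower, and replicate 3 showed a difference of -0.78. The fold change of 0.790 (log2 -0.34 ± 0.16 SE, n = 4 pairs) had a 95% interval of 0.601 to 1.04 (limma, adjusted p = 1.00). It was farther from 0 than the change of 94.3% of all tested probes. Without replicate 2 it was -0.48 ± 0.14 SE (unadjusted p = 0.0177, adjusted p = 0.866 in limma). Without replicate 3 it was -0.19, and Ptgs2, at 0.20, then lay farther from 0. With normexp it was -0.11 and with the deposited values -0.097, where Ptgs1, at -0.21 and -0.17, lay farther from 0.

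Ptges3 encodes the cytosolic prostaglandin E synthase, also known as the Hsp90 co-chaperone p23. It was bright on all arrays, with a log2 signal of 14.69, 14.78, 14.85 and 14.97 in non-irradiated replicates 1 to 4 and of 14.82, 14.41, 14.60 and 14.86 in irradiated replicates 1 to 4. The fold change was 0.899 (log2 -0.15 ± 0.13 SE, n = 4 pairs) with a 95% interval of 0.723 to 1.12, and 1 of 4 pairs was higher. The values of the 2 groups overlapped.

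Among the receptors, Ptger2 and Ptger4 encode EP2 and EP4, which couple to Gs and raise cAMP. Ptger4 probe A_44_P962711 had a log2 signal of 11.14, 9.17, 8.92 and 9.14 in non-irradiated replicates 1 to 4 and of 10.98, 9.72, 8.77 and 9.30 in irradiated replicates 1 to 4. Replicate 1 stood over 1 log2 unit above all other arrays in both groups, and the groups overlapped throughout. The fold change was 1.07 (log2 0.10 ± 0.16 SE, n = 4 pairs) with a 95% interval of 0.819 to 1.40, and 2 of 4 pairs were higher. A second Ptger4 probe, A_44_P454281, was above background on 0 arrays and was not tested. Ptger2 had a log2 signal of 5.43, 6.31, 6.40 and 6.32 in non-irradiated replicates 1 to 4 and of 6.21, 5.40, 6.19 and 6.53 in irradiated replicates 1 to 4. Each group held 1 low array, replicate 1 without and replicate 2 with irradiation, and the other 6 arrays lay between 6.19 and 6.53. The pair differences therefore ran from -0.91 to 0.77, and the fold change of 0.976 had a wide 95% interval of 0.617 to 1.54. The 2 low arrays were also alike beyond Ptger2. Across 26250 tested probes, their deviations from the group means correlated at 0.437, against 0.0553 within number 2.

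Ptger1 encodes EP1, which signals through calcium, and Ptger3 encodes EP3, which couples mainly to Gi and lowers cAMP. Both Ptger1 probes were dim, being above background on 4 non-irradiated and 3 irradiated arrays. Probe A_44_P208127 had a log2 signal of 5.09, 4.06, 4.18 and 4.31 in non-irradiated replicates 1 to 4 and of 4.64, 4.36, 3.86 and 4.43 in irradiated replicates 1 to 4. Its fold change was 0.942 with a 95% interval of 0.714 to 1.24, and the second probe, A_64_P062638, gave 0.905 with an interval of 0.579 to 1.41. At Ptger3 probe A_44_P1103272, the log2 signal was 8.24, 7.32, 6.08 and 6.04 in non-irradiated replicates 1 to 4 and 7.69, 7.84, 6.34 and 5.80 in irradiated replicates 1 to 4. Replicates 1 and 2 were above replicates 3 and 4 in both groups, with no overlap between these sets of numbers. The fold change after irradiation was 0.995 (log2 -0.0068 ± 0.20 SE, n = 4 pairs) with a 95% interval of 0.710 to 1.40. A second Ptger3 probe, A_64_P150603, was above background on 3 non-irradiated and 4 irradiated arrays and gave a log2 fold change of 0.05 ± 0.16 SE. The third, A_44_P1082014, was above background on 0 arrays.

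Hpgd encodes 15-hydroxyprostaglandin dehydrogenase, the first enzyme of prostaglandin breakdown. Its log2 signal was 8.09, 8.53, 8.68 and 8.73 in non-irradiated replicates 1 to 4 and 7.77, 9.50, 8.85 and 7.73 in irradiated replicates 1 to 4. The irradiated group held both the highest array, replicate 2, and the lowest, replicate 4, and its SD was 0.86, against 0.29 in the non-irradiated group. The differences of the pairs were -0.32, 0.97, 0.17 and -0.99, so replicates 2 and 4 moved by nearly the same amount in opposite directions. The fold change of 0.969 (log2 -0.04 ± 0.31 SE, n = 4 pairs) had the widest 95% interval on the log2 scale of the 10 brightest probes, from 0.573 to 1.64 as a fold.

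Taken by role, 1 of the 5 synthase genes (Ptgs2) had a log2 fold change above 0, and the median of the 5 was -0.15, with a range of -0.34 to 0.19. In single pairs, the synthase median was -0.0057, -0.26, -0.25 and -0.11 for replicates 1 to 4, while the median of all tested probes was -0.05, 0.09, -0.02 and -7.1e-06. For the 4 receptors the median was -0.02, with a range of -0.09 to 0.10, and 1 of 4 (Ptger4) was above 0. In single pairs the receptor median was -0.31, 0.41, -0.18 and 0.14. Over all 8 tested synthase probes, in place of the brightest of each gene, the median of replicate 1 was 0.15, so its sign in that pair depended on the probes taken. The order of the roles turned without replicate 2, where the synthase median was -0.097 and the receptor median -0.12, and without replicate 1 they were -0.25 and 0.11. Ptgs1, Ptgs2 and Ptges3 stood at -0.35, 0.29 and -0.25 without replicate 1 and at -0.097, 0.08 and -0.08 without replicate 2. None of the genes passed the test on its own.

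Ptgs1, Ptger3 and Ptger4 varied between replicate numbers by more than any other member. The names of the scanner files give each of the 4 numbers a different rat and both arrays of a number the same rat. The range of the 4 pair means was wider than the largest difference within a pair in 10 of 15 tested member probes, a share near the 58.8% of all probes with a value on every array. After these values had been seen, an F test of the replicate terms was added to the same limma fit, adjusted over all probes. It called 4 of 15 member probes at an adjusted p of 0.1, against 9.29% of all probes. These 4 were both Ptgs1 probes, Ptger3 A_44_P1103272 and Ptger4 A_44_P962711. The count was 0 without replicate 1, 7 without replicate 2, and 1 without replicate 3 or without replicate 4, in fits with fewer arrays. The share of all probes called in those fits moved in the same way, to 0.788%, 36.9%, 1.79% and 1.29%. With probes below background kept in the fit, 1 member probe and 1.37% of all probes were called.

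Ptger4 had the widest range of the members. Its pair means were 11.06, 9.44, 8.85 and 9.22 for replicates 1 to 4, so replicate 1 was 4.63-fold above replicate 3 (adjusted p = 0.0229 in the limma F test). The range exceeded that of 98.8% of all probes, and the median range over all probes was 0.565. Without replicate 1 it narrowed from 2.21 to 0.60 on the log2 scale, with an adjusted p of 0.353 in the limma F test. Ptger3 had pair means of 7.97, 7.58, 6.21 and 5.92, a 4.14-fold range (adjusted p = 0.0372 in the limma F test). The other tested Ptger3 probe, A_64_P150603, had only a 1.47-fold range and was not called (adjusted p = 0.366 in the limma F test). The log2 range of the gene, 2.05 at the brighter probe, was 1.14 with its probes averaged and 1.32 with normexp, and both were still called. Its high numbers 1 and 2 lay in slide row 1 and its low numbers 3 and 4 in slide row 2, so rat and slide row cannot be told apart for this gene. Ptgs1 had pair means of 12.91, 11.70, 11.30 and 12.36 at A_44_P137448, a 3.04-fold range, and the upstream probe ranked the numbers the same way with a 3.28-fold range (adjusted p = 0.0442 and 0.0395 in the limma F test). The Ptgs1 and Ptger3 calls were lost when replicate 1, 3 or 4 was left out, with adjusted p above 0.1 and up to 0.172 in the limma F test. Their log2 ranges were then 1.05, 1.21 and 1.61 for Ptgs1 and 1.66, 2.05 and 1.76 for Ptger3, against 1.61 and 2.05 with all replicates. In these bulk samples, fewer cells of a type and less RNA per cell cannot be told apart. Ptges varied least, with pair means between 7.88 and 8.08, a range narrower than that of all but 8.22% of probes. The brightest Ptgs2 probe had pair means between 11.47 and 12.01 and was not called (adjusted p = 0.303 in the limma F test), but it was called without replicate 2 (adjusted p = 0.0894).

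**Figure D3:**
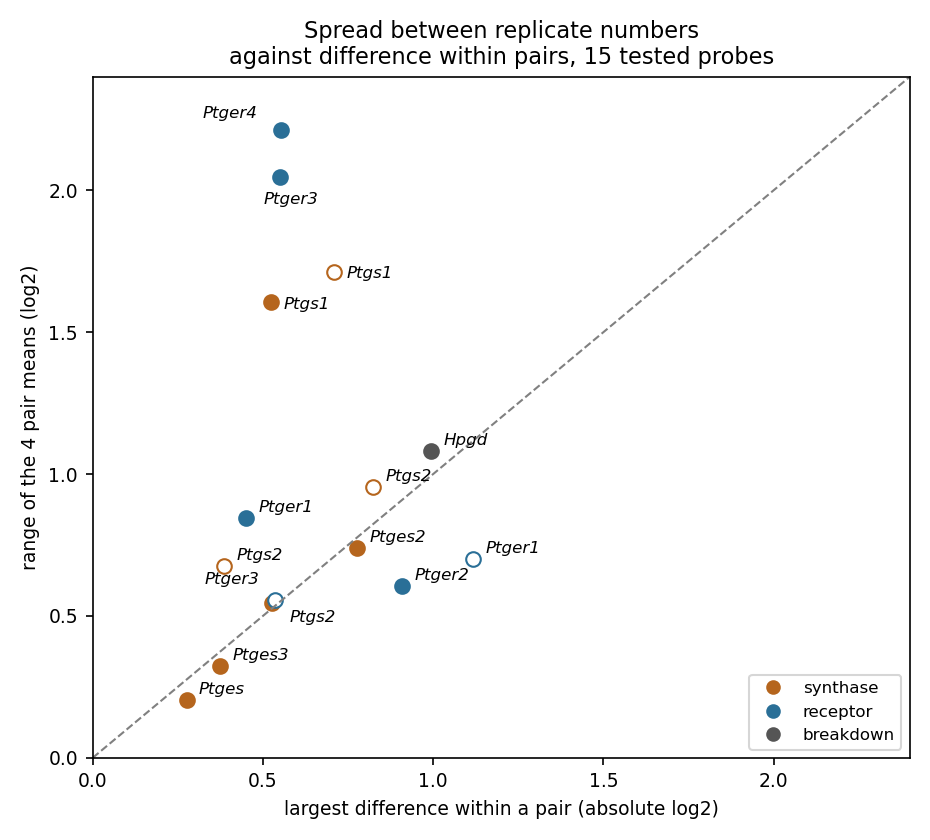
Range of the 4 pair means (y axis, log2) against the largest absolute difference within a pair (x axis, log2) for the 15 tested member probes; filled circles are the brightest probe of a gene and the dashed line marks equality. Ptger4, Ptger3 and both Ptgs1 probes stand far above the line, with ranges of 1.61 to 2.21.

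Some markers of several cell types also differed between the replicate numbers. The same F test called 9.29% of all probes with a value on every array. Of the cartilage markers it called 2 of 3 tested, the aggrecan gene Acan and the type II collagen gene Col2a1. Col2a1 had pair means of 10.04, 14.98, 15.85 and 15.09, so replicate 1 was 56.2-fold below replicate 3. Skeletal muscle markers were called in 2 of 5, with the embryonic myosin gene Myh3 at 10.93, 8.92, 7.13 and 6.51, a 21.4-fold range. Endothelial markers were called in 3 of 5, of which Kdr (VEGF receptor) was at 9.32, 9.32, 7.64 and 7.23, high in replicates 1 and 2. The other called endothelial markers split the numbers differently, with Tek at 8.03, 6.11, 5.76 and 6.27 and Vwf at 12.92, 13.81, 12.86 and 12.73. Osteoblast markers were called in 3 of 9, with the alkaline phosphatase gene Alpl at 10.73, 10.35, 10.33 and 8.49. Macrophage and leukocyte markers were called in 1 of 6, a count too small to tell from the share of all probes. The summed signal of the 4 cartilage markers ran from 3057 to 60952 over non-irradiated and from 2722 to 63713 over irradiated arrays, that of the 6 muscle markers from 314 to 2739 and from 319 to 2074, and that of the 5 endothelial markers from 7014 to 13057 and from 7445 to 18164. On the arrays of replicates 2 to 4 the cartilage sum was mostly Col2a1, while Sox9 had a 1.83-fold range and was not called. For the 9 osteoblast markers it ran from 486239 to 552737 and from 385300 to 543924, and for the 9 macrophage and leukocyte markers on the array from 1514 to 1699 and from 1378 to 1920. The part of these cells in the levels of Ptgs1, Ptger3 and Ptger4 was not tested.

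**Figure D4:**
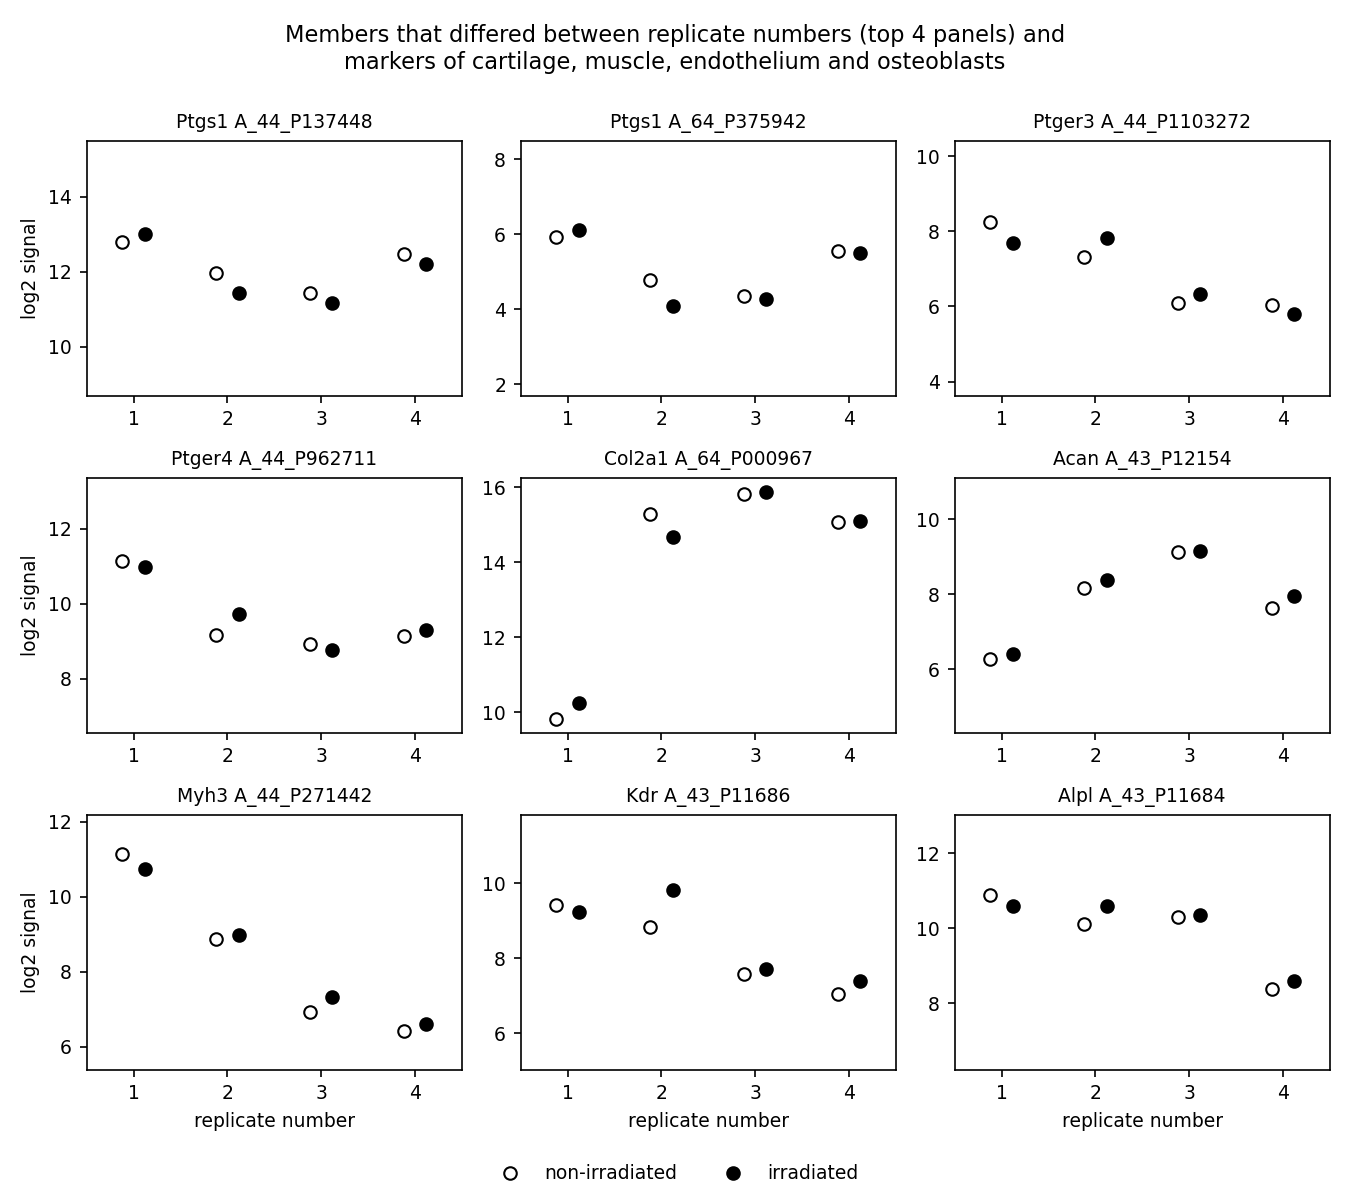
Log2 signal (y axis, 6.8 log2 units in every panel) by replicate number (x axis) for the 4 member probes that differed between replicate numbers and for Col2a1, Acan, Myh3, Kdr and Alpl, with open circles for non-irradiated and filled circles for irradiated cells. Ptger4 and Myh3 are highest in replicate 1, where Col2a1 is lowest, and the arrays of replicate 2 lie apart at Kdr and at the second Ptgs1 probe.

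The genes around the members were described by 6 lists, and in each of them 0 genes passed an adjusted p of 0.1 and 0 an unadjusted p of 0.05 in limma. For arachidonate release, 8 of 10 genes were tested and their median log2 fold change was -0.05. The smallest p there belonged to the phospholipases Pla2g2a (0.34 ± 0.36 SE) and Pla2g4a (-0.31 ± 0.34 SE), whose changes pointed in opposite directions. For the other prostanoid branches, 6 genes were tested with a median of -0.0040, led by the prostaglandin F receptor Ptgfr (-0.27 ± 0.21 SE) and the prostacyclin receptor Ptgir (0.11 ± 0.13 SE). For export, uptake and breakdown, 7 of 8 genes were tested with a median of -0.02, led by the transporter Slco3a1 (-0.15 ± 0.13 SE) and the reductase Ptgr1 (0.10 ± 0.15 SE). Of the lipoxygenase and related routes, 3 of 8 genes were tested with a median of 0.01, led by Cyp4a8 (0.21 ± 0.26 SE) and the lipoxygenase gene Alox5 (-0.11 ± 0.16 SE).

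Downstream of the Gs-coupled receptors, 13 of 16 cAMP targets were tested, with a median log2 fold change of 0.02. The hyaluronan synthase gene Has2 (0.29 ± 0.20 SE) and the phosphatase gene Dusp1 (0.17 ± 0.12 SE) had the smallest p, and each was higher in 3 of 4 pairs. The other 3 genes, Il6, the RANKL gene Tnfsf11 and Pde4b, were above background on 0 arrays. Between replicate numbers, 5 of the 13 were called by the F test, against 9.29% of all probes, and these were Has2, Igf1, Nr4a1, Nr4a3 and Rgs2. All 5 were highest in replicate 1, as were 46% of all probes called between replicate numbers, and Rgs2 (a regulator of G protein signaling) had pair means of 11.66, 10.33, 9.57 and 9.82. Upstream, 9 of 12 inducers of Ptgs2 and Ptges were tested, with a median of -0.0017, led by the interleukin-1 receptor gene Il1r1 (-0.23 ± 0.24 SE) and Tgfb1 (0.10 ± 0.15 SE). The cytokine genes Il1a and Il1b were above background on 0 arrays and Tnf on 1. No inducer and no gene of arachidonate release was called between replicate numbers.

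**Figure D5:**
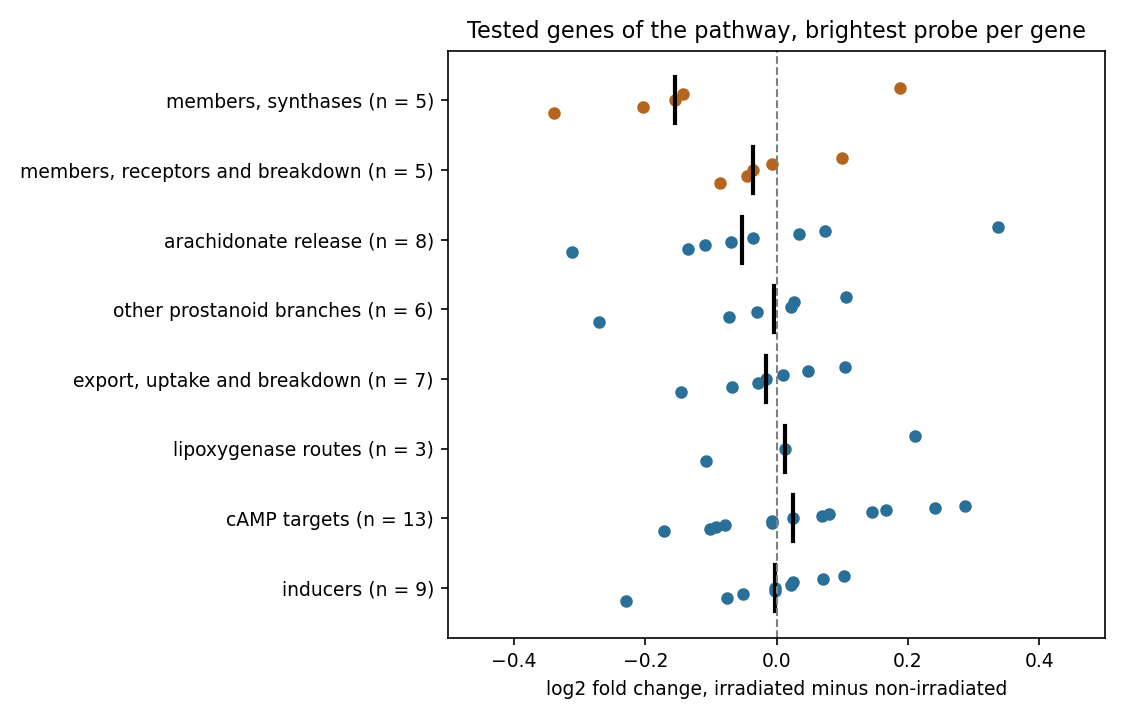
Log2 fold change (x axis, irradiated minus non-irradiated) of the tested genes of each list (y axis), 1 point per gene at its brightest probe, with black bars at the list median. All medians other than that of the 5 synthase genes, -0.15, lie within 0.1 of 0.

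The probes whose pattern over the 8 arrays was most like that of a member were found by the mean absolute difference of mean-centred log2 values. For Ptgs2, among 17738 named probes of other genes, these were Nfe2l2, at a mean difference of 0.0456, followed by Capn8, Gk, Fancc and Usp15, at 0.0577 to 0.0698. For Ptges they were Hivep3, at 0.0471, followed by Htatsf1, Smarce1, Dok4 and Prox1, at 0.0476 to 0.0530. Both members varied little over the arrays, so a small difference from them is easily reached by other probes that vary little.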

How the data were processed

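Gene expression was measured on 8 one-color (Cy3) Agilent arrays from 200 ng of total RNA each, 4 per group. The sample labels gave each array its group and replicate number. The authors deposited spot intensity values from Feature Extraction 11.0.1.1, whose processed signal is corrected for background and for trends within an array but not normalized between arrays. A table of log2 values, which the authors had quantile normalized, was deposited as well, with 1 row per transcript name. For Ptgs1, Ptgs2 and Ptger1 that name is shared by 2 probes. The spot files also hold the software's flags for outlying, saturated and well-above-background spots.

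Processed signals of 58717 rat spots, without outlying spots, were transformed to log2 and quantile normalized, and spots of a probe were averaged. Testing required over 50% of a probe's spots to be well above background on every array of either group. Of 26404 such probes, 26391 could be fitted. Groups were compared with limma 3.58.1 (R 4.3.3) with replicate number as blocking factor and two-sided, Benjamini-Hochberg adjusted p-values over all tested probes. The replicate F test, chosen after the values were seen, used the 26250 probes with a value on all 8 arrays.

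The replicate numbers pair the cultures, since the names of the scanner files give both arrays of a number the same rat. Deviations from group means correlated across probes at 0.608, 0.0553, 0.570 and 0.749 within numbers 1 to 4, and irradiated replicate 2 correlated at 0.437 with non-irradiated replicate 1. Non-irradiated replicate 2 correlated at 0.302 with irradiated replicate 3.

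Members were all probes with the exact gene name. From each list of other genes the 2 with the smallest p were named, and for Ptgs2 and Ptges the 5 most alike probes. Members and lists were chosen with earlier results of these data known. Markers and genes named for differing between replicate numbers were picked after their values were seen. Probe positions are of build rn4. The reference table describes another build and served only for gene names. The alternatives tried were the deposited values, normexp correction of the background (offset 50), scaling by the 75th percentile, other filters on dim probes, outlying spots kept, probes of a gene averaged, no block, trend and robust variance estimation, and each replicate left out.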

Additional observations from a re-analysis of the deposited data

Results flagged for a closer look

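Of 30 groups of 4 arrays (15 member probes in 2 groups), 3 held an array farther from the rest than Dixon's 95% limit, or 10% of groups, where chance gives about 5%. At Ptgs2 probe A_43_P11872, irradiated replicate 3 was low at 11.54, with the other irradiated arrays at 11.96 to 11.97 and its non-irradiated partner at 11.40. At Ptger2 probe A_43_P12508, non-irradiated replicate 1 was low at 5.43, with the other non-irradiated arrays at 6.31 to 6.40 and its irradiated partner at 6.21. At Ptger4 probe A_44_P962711, non-irradiated replicate 1 was high at 11.14, with the other non-irradiated arrays at 8.92 to 9.17 and its irradiated partner also high at 10.98.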

How the results depend on the processing

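Under each of the 13 alternatives, 0 probes passed an adjusted p of 0.1 for irradiation. At an unadjusted p of 0.05, 676 probes passed, against 1663 with dim probes kept, 248 with normexp, 448 with only probes above background on all 8 arrays, 292 with the deposited values, 251 with no replicate block, 379 with trend and robust estimation, and 386 to 1401 with a replicate left out. Of the member probes, 0 passed, also without the replicate block, and 0 to 2 with a replicate left out. Of 129 member fold changes, 10 changed sign, with the cause not tested. They were taken at the brightest probe, the deposited row of its transcript or the averaged probes of a gene. On the log2 scale these were Ptger3 with normexp (0.0037) or probes averaged (0.020), Ptger3 without replicate 1 (0.17) or 4 (0.07), Ptger1 without 1 (0.036), Hpgd without 1 (0.048) or 4 (0.27), Ptger2 without 2 (0.26) or 3 (0.025), and Ptger4 without 2 (-0.051). With a replicate left out, the fold changes ran from -0.217 to 0.036 for Ptger1, -0.305 to 0.256 for Ptger2, -0.182 to 0.175 for Ptger3, -0.051 to 0.188 for Ptger4 and -0.383 to 0.272 for Hpgd. Over all 13 alternatives, the 5 synthase genes kept their sign in the values taken this way. These ran from -0.347 to -0.097 for Ptgs1, 0.075 to 0.288 for Ptgs2 and -0.188 to -0.098 for Ptges. For Ptges2 they ran from -0.478 to -0.097, and for Ptges3 from -0.246 to -0.081. With a replicate left out, Ptges2 came no nearer to 0 than -0.194. The other Ptgs1 and Ptgs2 probes were not followed over all the alternatives, so the kept sign does not extend to them. The number of member probes that differed between replicate numbers, 4, was 1 with dim probes kept and 0 to 7 with a replicate left out. With dim probes kept, Ptgs1 and Ptger3 had an adjusted p of 0.128 in the limma F test, and the cause was not tested. The scalings left the median fold change of all probes between -0.00053 and 0.0028.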
